A study of Mus musculus with 6 samples.

Results

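The 108 probe sets described here gave a deposited signal of 5000 or more on each of the 6 arrays of the series and stood for 103 of the 8251 genes named on the array. They were chosen by that signal from 12422 probe sets that are not controls, of which they are 0.869%, and each carried 1 gene symbol in the platform annotation. Of 190 probe sets this bright on all 6 arrays, 4 were controls, 17 had no annotation entry, 27 carried several symbols and 34 belonged to families left out by symbol. The families left out were ribosomal proteins, granzymes, killer cell lectin-like receptors, T cell receptor segments, class I and II antigens, respiratory chain subunits, proteasome subunits, heat shock proteins, CD3 chains and integrins. The threshold cut through a continuum. The members closest to it were Akirin2, Dusp1, Litaf, Cbfb and a second Akirin2 probe set, with lowest signals of 5005, 5067, 5082, 5090.1 and 5095. Selenot, Pdcd4, Otud4, Ddx17 and Sod1 lay just outside, with lowest signals of 4987, 4973, 4969, 4962 and 4956. Because signal on these arrays chose the members, their levels and their differences between the same arrays are given as descriptions.

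Intraepithelial lymphocytes (IEL) are T cells that lie between the epithelial cells of the intestinal lining, where they patrol the barrier and respond quickly. Conventional IEL carry an alpha-beta T cell receptor with the CD8 alpha-beta coreceptor, whereas unconventional IEL carry the CD8 alpha-alpha homodimer with either an alpha-beta or a gamma-delta receptor. IEL are known for a partly activated state, with stored cytotoxic proteins and chemokine RNA at rest.

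The study sorted 3 such subsets from the small intestine of untreated C57BL/6 mice younger than 8 weeks, called TCRab CD8aa, TCRgd CD8aa and TCRab CD8ab after their receptor and CD8 form. Total RNA of each freshly isolated subset went onto 1 array in each of 2 experiments, and each experiment started from its own pool of 20 mice. A subset therefore had 2 arrays, from 2 pools, and no group was treated or genetically altered. Titles of the gamma-delta samples read TCRgb, and their source names, which read TCRgd, were followed.

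Series-wide checks touched the members at 3 points. The sorted populations carried T cell RNA, with 6 to 8 of 8 measured T lymphocyte markers at a signal of 1000 or more on each array. Their median lay at 9236 to 10509 on the arrays of experiment 1 and at 2627 to 2931 on those of experiment 2. Beta-actin controls read 1.41 to 1.76 times as much signal at the 3′ end as at the 5′ end in experiment 1, and 40.4 to 52.2 times as much in experiment 2. On the TCRgd CD8aa array of experiment 2, 9 of 18 measured enterocyte markers reached 1000 and their summed signal was 70146, against 2144 to 3387 on the other arrays, where none reached 1000. Signal here is bulk signal per pool, so a smaller number of expressing cells and less RNA per cell cannot be told apart.

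The lowest member on each array stood at percentile 96.8 to 97.2 of that array's signals. Together they held 13.5% to 14.9% of the summed signal on the 3 arrays of experiment 1 and on the TCRab CD8aa array of experiment 2. The share was 18.1% and 19% on the TCRab CD8ab and TCRgd CD8aa arrays of experiment 2. Sorted by function, 18 probe sets were placed in RNA binding and processing, 14 in transcription and chromatin, and 14 in the secretory and lysosomal pathway. A further 12 belonged to general signal transduction, 11 to T cell receptor signalling and lymphocyte surface proteins, and 9 to the actin cytoskeleton. Smaller groups were 7 immediate early and growth arrest genes, 6 in translation and ribosome biogenesis, 5 in other metabolism, 3 in protein folding and turnover, and 2 in microtubules. B2m, Ccl5 and Ldha stood alone in their groups, and 4 probe sets were given no function. No gene of the lists for mitochondrial proteins (22 measured) or for redox and iron (19 measured) was a member. Those lists do not cover every such gene. Cyc1 of the respiratory chain and Mrpl18 of the mitochondrial ribosome were members counted under other metabolism. Txnip, an inhibitor of thioredoxin, was counted with the immediate early genes, and bright respiratory chain subunits were left out by symbol. Signal also depends on the probes, so a higher signal of 1 gene than of another does not rank their transcripts.

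**Figure D1:**
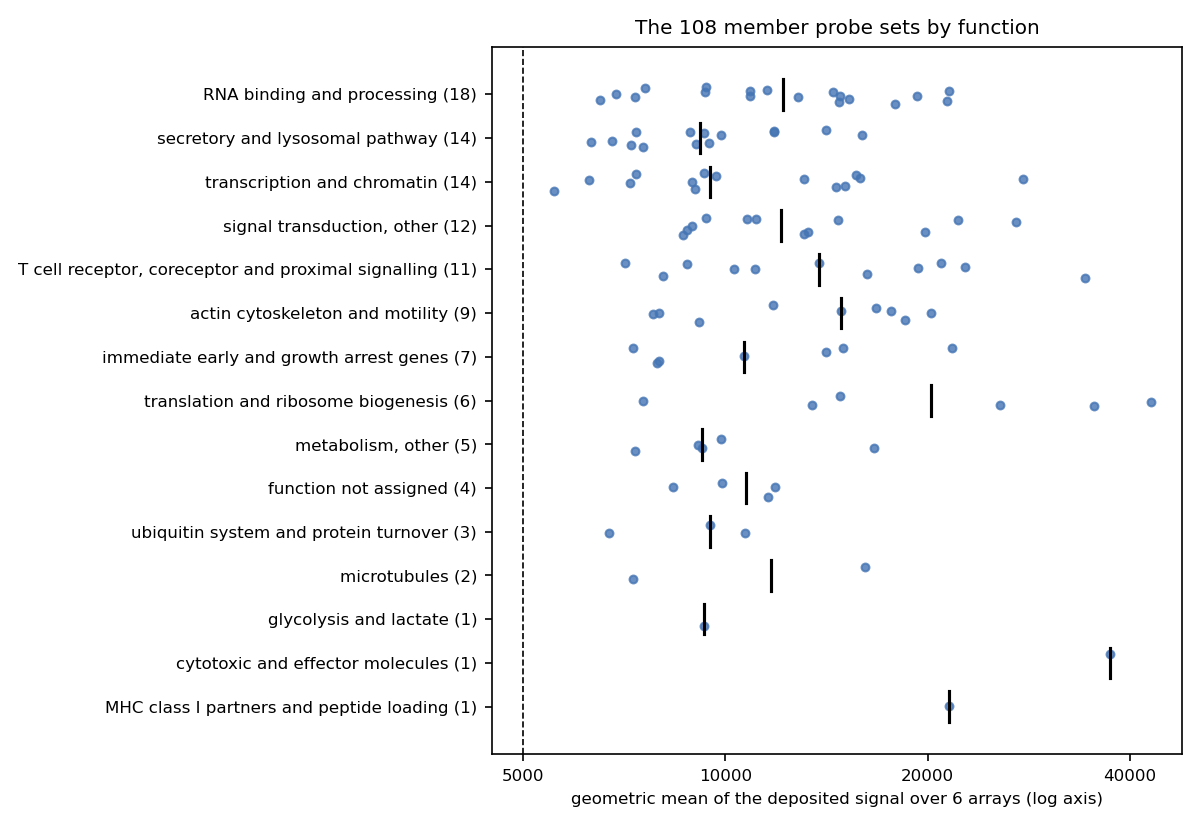
Geometric mean of the deposited signal over the 6 arrays (log axis) for the 108 member probe sets, grouped by function with the number of probe sets in brackets. Each point is 1 probe set, the bar is the group's median and the dashed line is the threshold of 5000.

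The promoters of the members were examined because they are one feature the choice by signal did not use. RefSeq promoter windows (build GRCm38.p6, 250 bases before to 50 after each start) matched 86 of the 103 genes, with 126 windows in all. Windows rich in CpG, with a CpG ratio of at least 0.6 and a GC content of at least 50%, were found for 83.7% of the member genes. The share was 65% for the 6572 genes on the array with 1 symbol and a window, and 36.1% for all 27025 genes of the table. The GC box GGGCGG, on either strand upstream of the start, occurred in 72.1% of the member genes, 58.9% of the genes on the array and 35.4% of all genes. CCAAT on either strand occurred in 40.7%, 40% and 37.5%, and the ETS-type letters CCGGAAGT in 7%, 5.7% and 3.2%. A pyrimidine tract led by C at the start, the letters of the 5′ terminal oligopyrimidine element, was found in 29.1%, 19.6% and 18%. Member genes had more windows per gene than the other genes, which can raise their shares. A match of letters is a description and not a binding site.

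TATAAA, 40 to 20 bases before the start on the sense strand, was found in 4 member genes, 4.7% against 3.4% of the genes on the array and 2.4% of all genes. The palindrome TGACGTCA, the letters of the cyclic AMP response element, was found upstream in 6, which is 7% against 2.7% and 1.8%. These stretches are shown because few genes carried either motif, and Errfi1 held both. The capitals mark the motifs, in 60 bases read 5′ to 3′ on the gene's strand and upstream of its start.
Fos, chr12:85473830-85473889, plus strand: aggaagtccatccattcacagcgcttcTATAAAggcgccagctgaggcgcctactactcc
Btg1, chr10:96616941-96617000, plus strand: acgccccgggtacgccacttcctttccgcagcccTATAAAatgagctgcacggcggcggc
Errfi1, chr4:150855010-150855069, plus strand: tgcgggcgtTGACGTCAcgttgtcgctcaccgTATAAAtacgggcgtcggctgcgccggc
Srsf2, chr11:116853095-116853154, minus strand: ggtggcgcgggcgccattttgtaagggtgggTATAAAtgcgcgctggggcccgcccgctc
Dusp1, chr17:26508582-26508641, minus strand: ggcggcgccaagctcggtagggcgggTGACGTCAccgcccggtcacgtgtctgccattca
Prkar1a, chr11:109650874-109650933, plus strand: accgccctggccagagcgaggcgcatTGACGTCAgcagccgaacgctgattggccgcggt
Zap70, chr1:36761738-36761797, plus strand: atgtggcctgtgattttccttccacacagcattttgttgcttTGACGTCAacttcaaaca
Ldha, chr7:46845744-46845803, plus strand: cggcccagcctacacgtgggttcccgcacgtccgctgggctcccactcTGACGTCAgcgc
Gas5, chr1:161035094-161035153, plus strand: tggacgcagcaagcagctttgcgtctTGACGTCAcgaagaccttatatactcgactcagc

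The GC box, found in most member genes, is shown for 1 translation and 1 transcription gene. Each had 2 copies, on either strand and marked in capitals, in the 150 bases before its start.
Tpt1, chr14:75845106-75845255, plus strand: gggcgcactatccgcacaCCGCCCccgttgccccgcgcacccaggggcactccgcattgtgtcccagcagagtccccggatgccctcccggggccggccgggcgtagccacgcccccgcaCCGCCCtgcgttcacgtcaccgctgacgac
Ybx1, chr4:119294514-119294663, minus strand: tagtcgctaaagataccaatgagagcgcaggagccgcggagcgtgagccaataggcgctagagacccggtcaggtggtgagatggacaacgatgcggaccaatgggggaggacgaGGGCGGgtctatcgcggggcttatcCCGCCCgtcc

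The T cell group held receptor-proximal enzymes and the surface proteins that all 3 subsets share. Signals are listed throughout for TCRab CD8aa, TCRab CD8ab and TCRgd CD8aa, in that order. Cd8a, the CD8 chain common to both coreceptor forms, gave 17414, 16243 and 16617 in experiment 1 and 7888, 6609.5 and 7519.7 in experiment 2. Zap70, the kinase that docks on the phosphorylated receptor, gave 17261, 12801 and 15551 in experiment 1 and 14797, 17149 and 21118 in experiment 2. Cd8a was high in experiment 1 and lower in experiment 2 in each subset, whereas for this Zap70 probe set the arrays of the experiments overlapped. Another Zap70 probe set was lower in experiment 2 (log2 −1.88). Fyn, a Src family kinase, gave 6044, 5940.2 and 7230.4 in experiment 1 and 10374, 8750.0 and 11656 in experiment 2, and all 3 arrays of experiment 2 lay above those of experiment 1. Ptprc, which encodes the phosphatase CD45, gave 8689.6, 9427 and 7709 in experiment 1 and 11328, 17004 and 9798 in experiment 2. Its highest array was TCRab CD8ab of experiment 2. Sh2d2a, an adapter that binds Lck, gave 14903, 14123 and 13618 in experiment 1 and 5146, 5439 and 5688 in experiment 2, and Ly6e, a lipid-anchored surface protein, gave 22635, 22627 and 19421 in experiment 1 and 7112, 10568 and 9109.7 in experiment 2. Both were lower on every array of experiment 2, and within each experiment the subsets lay close together.

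Negative regulators of the receptor were also among the T cell members. Ptpn22, a phosphatase that restrains receptor signalling, gave 19353, 19232 and 21154 in experiment 1 and 14349.7, 29088 and 25614 in experiment 2. Laptm5, a lysosomal protein that promotes loss of the receptor from the surface, had 2 member probe sets, and the brighter gave 18383, 15822 and 15724 in experiment 1 and 19129.8, 36788 and 42527 in experiment 2. Cytip, which binds cytohesin and limits adhesion, also had 2, and the brighter gave 28855, 26809.6 and 25879 in experiment 1 and 24882, 51857 and 63716 in experiment 2. For these 3 genes the subsets differed little in experiment 1, and in experiment 2 TCRab CD8aa lay below the other subsets by this probe set. Of the 35 measured genes on the list for receptor signalling, 7 were members. Of 27 others, 12 had a median signal of 1000 or more and 5 a median under 200.

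Effector and antigen presentation functions were carried by Ccl5 and B2m. Ccl5, a chemokine that T cells store and release on activation, gave 39821, 31294 and 38771 in experiment 1 and 24504, 52673 and 43797 in experiment 2. The TCRab CD8ab array was the lowest of its experiment in experiment 1 and the highest in experiment 2. B2m, the light chain of class I molecules, gave 24674, 24914 and 20595 in experiment 1 and 15423, 22655 and 22655 in experiment 2. TCRab CD8aa of experiment 2 was the lowest array for both genes, and the subsets overlapped. Of the 20 measured genes on the effector list, 11 of the 19 others had a median signal of 1000 or more.

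General signalling members covered G proteins, kinases, small GTPases and 1 prostaglandin receptor. Gnai2, an inhibitory G protein subunit that chemokine receptors use, gave 22986, 17719 and 18465 in experiment 1 and 23480.4, 50003 and 44719.8 in experiment 2. Gnas, the stimulatory subunit, gave 25579, 22472 and 26422 in experiment 1 and 13986, 15699 and 18152 in experiment 2. All arrays of experiment 2 lay below those of experiment 1 for Gnas and above them for this probe set of Gnai2. The 2 other probe sets of Gnai2 were lower in experiment 2 (log2 −3.00 and −1.53). Ptger4, the receptor EP4 for prostaglandin E2, gave 7150.1, 5946 and 6379.8 in experiment 1 and 11774, 11021 and 12808 in experiment 2. Its 3 arrays of experiment 2 lay above the others. Prkar1a, a regulatory subunit of protein kinase A, gave 12449, 11246 and 12914 in experiment 1 and 14303, 18427 and 21333 in experiment 2, and Prkacb, a catalytic subunit, gave 10675, 7795 and 10303 in experiment 1 and 8695, 6265 and 9023 in experiment 2. The TCRab CD8ab arrays were the lowest 2 of 6 for Prkacb. Gimap4, a GTPase of lymphocytes, gave 17439, 18004 and 18498 in experiment 1 and 19598, 33964 and 30631 in experiment 2, without a subset standing apart. Errfi1, an inhibitor of the epidermal growth factor receptor family, gave 14253, 8315 and 13718 in experiment 1 and 13618, 7051 and 10093 in experiment 2. Both TCRab CD8ab arrays lay below the other 4. Ran, Arf1, Ccni, Gsk3a and Ywhaq completed the group, with signals between 5674 and 22764.

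Actin genes serve cell shape and motility. Tmsb4x, which sequesters actin monomers, gave 28728, 28779 and 26886 in experiment 1 and 12111, 16420.3 and 9164 in experiment 2. Actg1, cytoplasmic gamma-actin, gave 23068, 25330.5 and 22265 in experiment 1 and 11159.5, 11877 and 17626 in experiment 2. Both were lower on every array of experiment 2. Actr3 and Arpc2 are subunits of the Arp2/3 complex that nucleates branched filaments. Actr3 gave 20259, 19294 and 18371 in experiment 1 and 14906, 26654 and 24087 in experiment 2, and Arpc2 ranged over 12713 to 18351. Lcp1, the leukocyte filament bundler plastin, ranged over 9246 to 13994 and lay higher on the arrays of experiment 1. Tmod3, which caps pointed ends, gave 10046, 10803 and 10019 in experiment 1 and 22586, 27969.6 and 32072 in experiment 2, higher throughout experiment 2. Rac1, a GTPase that drives membrane ruffling, gave 8856, 9193 and 8670.1 in experiment 1 and 9081, 9916 and 9153 in experiment 2. Its range over the 6 arrays, 1.14-fold, was the narrowest of the members. Cdc42 and Capza1 ranged over 7054 to 9317 and 6978 to 9357. Of 42 measured genes on the actin list, 8 were members, and 23 of the 34 others had a median signal of 1000 or more. Of the microtubule members, Tuba1a, an alpha-tubulin, gave 6013, 8682 and 6191 in experiment 1 and 23532, 45892 and 50581 in experiment 2, and Dynll1, a dynein light chain, ranged over 6221 to 9709.8. Tuba1a had the widest range of the members, 8.41-fold, and it lay between the experiments. Another Tuba1a probe set was lower in experiment 2 (log2 −0.82).

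**Figure D2:**
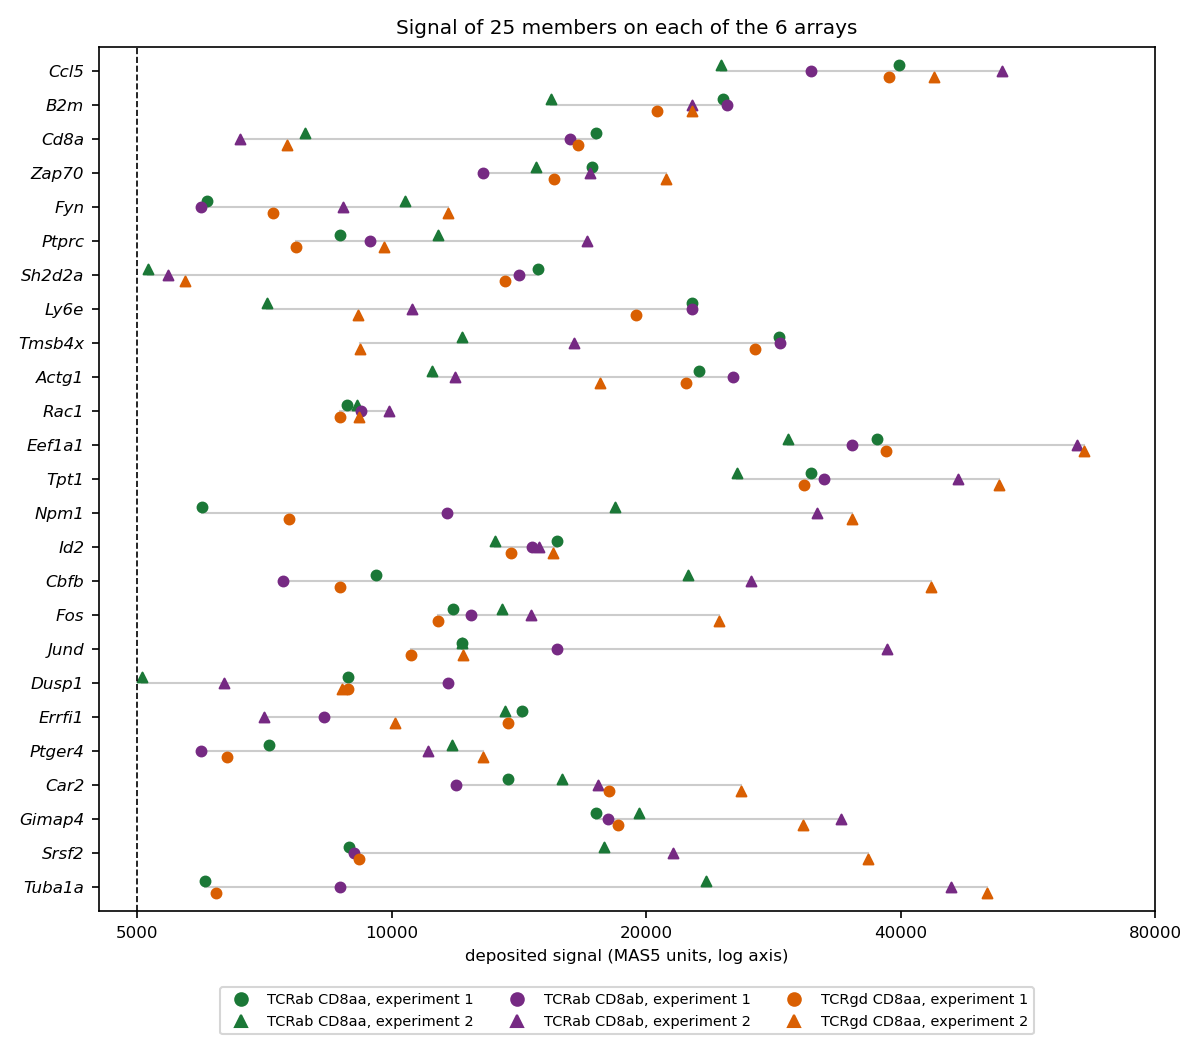
Deposited signal (log axis) of named members on each of the 6 arrays, coloured by subset, with circles for experiment 1 and triangles for experiment 2. Each gene is shown by its brightest member probe set and the dashed line is the threshold of 5000. Rac1 and Id2 hold their 6 arrays close together, whereas Cd8a, Sh2d2a, Npm1, Cbfb and Tuba1a split by experiment.

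Immediate early genes, which respond to stimulation within minutes, were bright in all 3 subsets of these freshly isolated cells. Fos, a subunit of the AP-1 factor whose TATAAA stretch is shown above, gave 11799.7, 12403 and 11337 in experiment 1 and 13509, 14605 and 24378 in experiment 2. Jund, its partner, gave 12094, 15671 and 10538 in experiment 1 and 12106, 38514 and 12122 in experiment 2. Both TCRab CD8ab arrays of Jund lay above the other 4, the one of experiment 2 by a wide margin. Dusp1, a phosphatase that switches off MAP kinases, gave 8876, 11639 and 8866 in experiment 1 and 5067, 6327 and 8725 in experiment 2. Btg1, an inhibitor of proliferation, gave 8711, 11344 and 9463 in experiment 1 and 5739, 6596 and 6873 in experiment 2, and Klf6, a zinc finger factor, gave 8939, 8034 and 6914 in experiment 1 and 11771, 12668 and 19756 in experiment 2. Dusp1 and Btg1 were lower on all arrays of experiment 2 and Klf6 was higher. Zfp36l2, which promotes decay of AU-rich messages, gave 14570.1, 17468 and 15908 in experiment 1 and 21039.7, 32092 and 39164 in experiment 2. Txnip, an inhibitor of thioredoxin, ranged over 6172 to 9577, with the TCRab CD8ab array the highest in each experiment. Of the 29 measured genes on this list 7 were members, and 13 of 22 others had a median of 1000 or more.

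Transcriptional regulators included factors with known roles in T cells. Id2, which blocks E proteins and supports CD8 effector cells, gave 15689.6, 14631 and 13825 in experiment 1 and 13259.5, 14941 and 15496 in experiment 2. Its 6 arrays lay within 0.24 on the log2 scale. Cbfb, the partner of the Runx factors that silence Cd4 in CD8 cells, gave 9564, 7440.0 and 8675 in experiment 1 and 22384, 26601 and 43433 in experiment 2 by the brighter of its 2 probe sets. Every array of experiment 2 was higher for both probe sets. Ybx1, a cold shock protein that binds DNA and RNA, gave 23539, 22982 and 23781 in experiment 1 and 21686, 39031 and 41880.0 in experiment 2. The chromatin members included Smarcd2 of the SWI/SNF complex, which gave 12119, 9272 and 8697 in experiment 1 and 22870.3, 24152 and 27251 in experiment 2 and was higher throughout experiment 2. Chd4 of the NuRD complex gave 16658, 11101 and 12767 in experiment 1 and 13772, 20285 and 17712 in experiment 2, with the experiments overlapping. Rbbp7 of the same complex and Hmgn1, a nucleosome-binding protein, ranged over 6035 to 13564 and 8648 to 26519. Gtf2i, a general transcription factor, gave 9294, 7801 and 6531 in experiment 1 and 9168, 16665 and 7432 in experiment 2, and both TCRgd CD8aa arrays lay below the other 4. Gtf2b, another, ranged over 6271 to 8230.3. Pcna, the replication clamp, ranged over 5359 to 8009, and Anp32b over 5102 to 10294. The probe sets of Akirin2, a nuclear cofactor of inflammatory genes, ranged over 5095 to 19165 and 5005 to 6937.

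The translation members were the elongation factor Eef1a1, the growth-related protein Tpt1, the poly(A)-binding protein Pabpc1, the nucleolar proteins Npm1 and Ncl, and the helicase Eif4a2. Eef1a1 gave 37475, 34988 and 38406 in experiment 1 and 29378, 64674 and 65839 in experiment 2. Tpt1 gave 31349, 32445 and 30752 in experiment 1 and 25569, 46731 and 52239 in experiment 2. Pabpc1 gave 24900.4, 25699 and 26119 in experiment 1 and 17304, 35236 and 27679 in experiment 2. The subsets were nearly level in experiment 1 for these 3 genes, and in experiment 2 TCRab CD8aa was the lowest. Npm1 gave 5959.6, 11616 and 7552 in experiment 1 and 18344, 31805 and 34983 in experiment 2. TCRab CD8aa was the lowest subset in each experiment, and each array of experiment 2 exceeded all of experiment 1. Ncl and Eif4a2 ranged over 5854 to 11232 and 9689 to 19553. Of the 34 measured genes on the list, 6 were members, and 17 of 28 others had a median of 1000 or more.

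RNA binding and processing was the group with the most members. Splicing regulators were Srsf2, Srsf5, Srsf11, the kinase Clk1 that phosphorylates them, and Rsrp1. Srsf2 gave 8903, 9018 and 9132 in experiment 1 and 17835, 21519.8 and 36550.1 in experiment 2, and Srsf5 gave 15859.6, 15198 and 13308 in experiment 1 and 17046, 17111 and 34969 in experiment 2. Both lay higher on each array of experiment 2, and TCRgd CD8aa was the highest there. The heterogeneous nuclear ribonucleoproteins were Hnrnpa2b1, Hnrnpdl, Hnrnph1, Hnrnpm, Pcbp1 and Pcbp2, with signals between 5222 and 22926. Gas5, a host transcript of small nucleolar RNAs, gave 18063, 18441 and 14787 in experiment 1 and 19594, 28053 and 36599 in experiment 2. Cnbp, a zinc finger protein that binds single-stranded nucleic acid, had 2 probe sets. The brighter gave 16883, 17744 and 20561 in experiment 1 and 17994, 26066 and 33284 in experiment 2, with TCRgd CD8aa the highest in each experiment, and the other ranged over 10009.7 to 26541. Dnajc8 of the spliceosome gave 12119, 11673 and 13853 in experiment 1 and 21906, 32914 and 36507 in experiment 2. Ewsr1, Matr3 and Mbnl1 ranged over 10351 to 27492, 8835 to 12646 and 5358 to 10722. Of 34 measured genes on the list, 7 were members, and none of 26 others had a median under 200.

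Secretory and lysosomal members were mostly membrane proteins of the endoplasmic reticulum, Golgi and endosome. Itm2b, an integral membrane protein, gave 12114, 10621 and 12121 in experiment 1 and 17301, 17884 and 34159 in experiment 2. Shisa5, a protein of the endoplasmic reticulum, gave 19707, 18946 and 17231 in experiment 1 and 8884, 13046 and 10608 in experiment 2. Itm2b was higher and Shisa5 lower on every array of experiment 2. Ndfip1, an adapter of the ubiquitin ligase Itch that restrains T cell activation, gave 10403, 10442 and 9042 in experiment 1 and 13632, 10685 and 19072 in experiment 2. Cd164, a sialomucin, gave 8301, 11000.2 and 9511 in experiment 1 and 12917, 17021 and 14315 in experiment 2. No subset stood apart for either gene. Litaf, an endosomal protein, gave 12178, 5082 and 8623 in experiment 1 and 9049.6, 10357 and 10969 in experiment 2, and the low TCRab CD8ab array of experiment 1 set its place just inside the threshold. Saraf, Chmp4b, Tax1bp1, Tmem123, Krtcap2, Tgoln1, Atp1b3, Sec61a1 and Rnf149 lay between 5283 and 14995. Of 44 measured genes on the list, 5 were members.

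Metabolic and folding members were few. Car2, a carbonic anhydrase, gave 13737, 11894 and 18080.5 in experiment 1 and 15899, 17521 and 25849 in experiment 2. TCRgd CD8aa was the highest subset in each experiment, and its 2 arrays lay above the other 4. The array of experiment 2 was the one with raised enterocyte markers, and the part of those cells in its Car2 signal was not tested. On the array of experiment 1, where no enterocyte marker reached 1000, Car2 of TCRgd CD8aa was also above the other subsets. Ldha, which makes lactate from pyruvate, gave 11069, 10877 and 11354 in experiment 1 and 6660.1, 8442 and 8324 in experiment 2, lower throughout experiment 2. Of 18 measured genes on the glycolysis list it was the 1 member, and 9 of 17 others had a median of 1000 or more. Elovl5, Oga, Cyc1 and Mrpl18, for fatty acid elongation, removal of O-linked sugar, the respiratory chain and the mitochondrial ribosome, ranged over 6983 to 12908, 7372 to 12996, 6678 to 10764 and 6677 to 8394. The cochaperones Dnaja1 and Dnajb6 ranged over 6415 to 28862 and 6657 to 18246. Cct5, a subunit of the chaperonin that folds actin and tubulin, gave 5591, 7111 and 5180.5 in experiment 1 and 6978, 11619 and 5420.1 in experiment 2. Its TCRab CD8ab arrays were the highest 2 of 6 and its TCRgd CD8aa arrays the lowest 2. The 4 probe sets without a function were those of Fam107b, Wdr92, AW112010 and Gm15772, with signals between 5421 and 18039. Gm15772 gave 7225, 10511 and 8105 in experiment 1 and 5420.5, 14213 and 7189 in experiment 2, and both TCRab CD8ab arrays lay above the other 4.

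The subsets were then compared over the same arrays. In experiment 1 the members differed between the highest and lowest subset by a median of 1.21-fold, against 1.45-fold over all 8299 tested probe sets, and 107 of 108 differed by less than 2-fold (1 log2 unit). In experiment 2 the medians were 1.57-fold and 1.86-fold, and 88 of 108 members stayed within 1 log2 unit. The rule kept only probe sets that were bright in every subset, so nothing is read from the members' narrower range. TCRab CD8aa was the lowest subset for 73 members in experiment 2 and for 31 in experiment 1. TCRgd CD8aa was the highest for 63 in experiment 2, where its array carried enterocyte markers, and for 22 in experiment 1. This order belongs to the deposited scaling: after quantile normalization TCRab CD8aa was the lowest for 26 members in experiment 2 and 36 in experiment 1, and TCRgd CD8aa the highest for 28 and 30. The order of the subsets given above for single members is likewise that of the deposited values. No member passed limma's test between subsets at an adjusted p under 0.05, where all 6 arrays were fitted without a term for the experiment, and 0 were at an unadjusted p under 0.05 in any of the 3 comparisons. That fit passed 0% of all tested probe sets in each, and 187, 168 and 34 of them were at an unadjusted p under 0.05.

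With the experiment as a replicate block, 0.819% of all tested probe sets passed between TCRab CD8aa and TCRab CD8ab, 0.554% between TCRgd CD8aa and TCRab CD8ab and 0.0241% between the CD8aa subsets. None of the 108 members was among them in any comparison, where shares this small give under 1 in 108. At an unadjusted p under 0.05 were 4, 2 and 0 members, or 3.7%, 1.9% and 0%, against 10.1%, 8.2% and 2.1% of all tested probe sets. The members were chosen to be bright on all 6 arrays, so nothing is read from their lower shares. The comparisons with TCRab CD8ab share its arrays. The function lists by which many of the members were sorted did hold genes that passed, none of them a member. Cd8b1, Cd5, Cd6, Cd2, Cd28, Thy1, Lgals1 and Klf2 were lower in TCRab CD8aa than in TCRab CD8ab, and Fcer1g, Tyrobp and Txk were higher. Cd8b1 encodes the CD8 beta chain, and the subsets were sorted by their CD8 form. Of 35 tested genes on the receptor signalling list, 3 passed as higher and 6 as lower in that comparison.

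The median difference of the members was log2 −0.16 for TCRab CD8aa minus TCRab CD8ab, 0.03 for TCRgd CD8aa minus TCRab CD8ab and 0.18 for TCRgd CD8aa minus TCRab CD8aa. Over all tested probe sets the medians were −0.08, −0.06 and 0.00. After quantile normalization the members' medians were 0.04, 0.01 and −0.015, so the first and the last changed sign. With the experiment as a block, the medians for TCRgd CD8aa became −0.16 against TCRab CD8ab and 0.01 against TCRab CD8aa without TCRgd CD8aa of experiment 2, and the first median became 0.04 without TCRab CD8aa of experiment 2. Of 108 members, 54, 52 and 50 had the same sign in both experiments in these comparisons, which is close to an even split. Pearson's r across the 108 members between experiment 1 and experiment 2 was 0.11, 0.16 and 0.07, over probe sets that share arrays and are not independent.

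The widest differences of the same sign in both experiments belonged to a few members. Jund was lower in TCRab CD8aa by log2 −0.37 in experiment 1 and −1.67 in experiment 2, a mean of −1.02 (SE 0.37 from the blocked fit, 2.03-fold). In TCRgd CD8aa against TCRab CD8ab the Jund values were −0.57 and −1.67, a mean of −1.12 (SE 0.37). Errfi1 ran the other way, at 0.78 and 0.95 in TCRab CD8aa, a mean of 0.86 (SE 0.29, 1.82-fold higher). Jund and Errfi1 therefore differed in opposite directions, and for neither did the TCRab CD8ab arrays overlap the other 4. Gm15772, of no assigned function, was lower in TCRab CD8aa by −0.54 and −1.39, a mean of −0.97 (SE 0.31). Npm1 was lower in TCRab CD8aa by −0.96 and −0.79, a mean of −0.88 (SE 0.31). Of these 4, the differences of Errfi1 and Npm1 were of like size in both experiments. In TCRgd CD8aa, Cct5 was lower than in TCRab CD8ab by a mean of −0.78 (SE 0.30), Gtf2i by −0.71 (SE 0.34) and Gm15772 by −0.68 (SE 0.31). With 1 array left out of the blocked fit, Cct5 ran from −1.04 to −0.52, Gtf2i from −1.22 to −0.205 and Gm15772 from −1.04 to −0.315. Between the CD8aa subsets, TCRgd CD8aa was higher for Cnbp (means of 0.59 and 0.66 for its probe sets), Npm1 (0.64) and Eef1a1 (0.60). As single arrays were left out of the blocked fit, Npm1 ran from 0.30 to 0.97, the probe sets of Cnbp from 0.32 to 0.85 and from 0.30 to 1.02, and Eef1a1 from 0.01 to 1.19. Without a term for the experiment, Npm1 ran from −0.47 to 1.74, since the array left out then also shifts the balance of the experiments. After quantile normalization the difference of Eef1a1 turned to −0.12, and those of the Cnbp probe sets and Npm1 shrank to 0.20, 0.39 and 0.22. TCRab CD8aa minus TCRab CD8ab was then −0.47 for Npm1, −0.77 for Jund, −0.91 for Gm15772 and 1.04 for Errfi1. TCRgd CD8aa minus TCRab CD8ab was −1.04 for Jund, −0.76 for Cct5, −0.68 for Gtf2i and −0.62 for Gm15772. In all, 13 members had a subset whose 2 arrays lay apart from the other 4, which was TCRab CD8ab for 7 as the highest and for 2 as the lowest. That is 12% of the members, against 18.4% of all tested probe sets, and pairs of subsets did not overlap for 13.9%, 13.9% and 12% of the members against 22.9%, 19.8% and 14.4% of all. The choice by brightness bears on these shares too, and nothing is read from them.

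**Figure D3:**
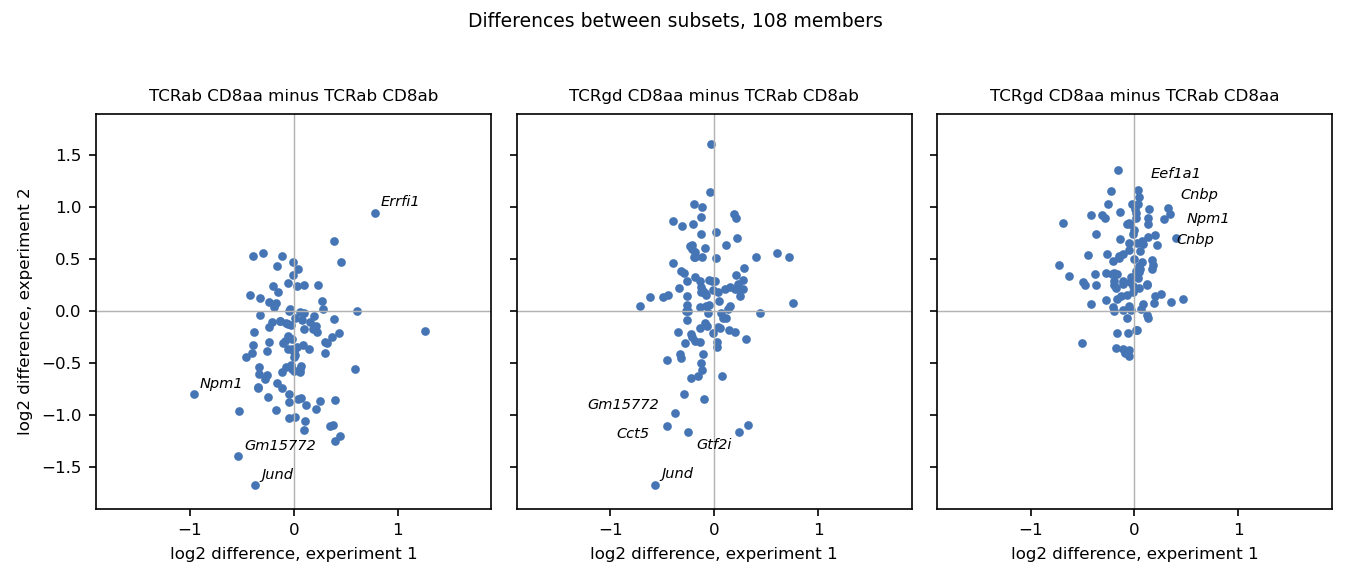
Log2 difference between subsets in experiment 1 (horizontal) and experiment 2 (vertical) for the 108 members, 1 point per probe set and 1 panel per comparison, with the 4 widest same-sign members named. Points spread further along the vertical axis, and Errfi1 and Jund lie away from the rest in the same direction in both experiments.

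The larger contrast among the members lay between the experiments, each a different pool of mice carrying all 3 subsets. Members had a median difference, experiment 2 minus experiment 1, of log2 0.43, against −0.02 over all tested probe sets. By subset the members' medians were 0.10 in TCRab CD8aa, 0.49 in TCRab CD8ab and 0.57 in TCRgd CD8aa. Limma's fit with subset and experiment passed 27 of 108 members (25%) as higher in experiment 2, where 13.7% of all tested probe sets passed as higher. It passed 9 members (8.3%) as lower, where 20.4% of all passed as lower. The threshold of 5000 on every array limits how far a member can fall, and the counts are given as a description. With 1 pool per experiment, the fit took its spread from the 3 subsets, so its p-values do not measure the spread between pools. Of the 36 members that passed, 14 also did so without the intensity trend, where 2273 of all 8299 tested probe sets passed, against 2827 with it. Without the filter on low values 0 members passed, and 506 of all 12422 tested probe sets. As single arrays were left out, the members' median difference ran from log2 0.31 (without either TCRgd CD8aa array) to 0.58 (without either TCRab CD8aa array). The actin 3′ to 5′ ratio and the T cell markers moved with the experiment as given above, and their part in these differences was not tested.

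The RNA-binding group, 18 of the 108 members, accounted for 7 of the 27 higher members. In that group 17 of the 18 had a mean above 0. The same held for 81 of all 108 members and for 49.3% of all tested probe sets. Srsf2 rose 2.67-fold (log2 1.42, SE 0.27, limma adjusted p = 0.00409) and Dnajc8 2.38-fold (log2 1.25, SE 0.25, adjusted p = 0.00531). Transcription and chromatin, with 14 members, gave 7 more. Among them was Cbfb at 3.47-fold (log2 1.80, SE 0.28, limma adjusted p = 0.00156) and 2.91-fold by its probe sets. Tuba1a had the largest difference, 5.53-fold by its member probe set (log2 2.47, SE 0.27, limma adjusted p = 0.00036). Npm1 rose 3.39-fold (log2 1.76, SE 0.26, limma adjusted p = 0.0012). Among the members that passed as lower were T cell and actin genes. Sh2d2a fell by 1.39 on the log2 scale (SE 0.23, adjusted p = 0.00215), Ly6e by 1.29 (SE 0.25) and Cd8a by 1.19 (SE 0.23). Tmsb4x fell by 1.20 (SE 0.26) and Actg1 by 0.83 (SE 0.26). Chmp4b, Shisa5 and Saraf of the secretory group and the GTPase Arf1 were the other 4 that passed as lower. Fyn was the 1 T cell member that passed as higher, at 1.60-fold (limma adjusted p = 0.0467), although 8 of the 11 had a mean above 0. Laptm5 had a log2 difference of 0.90 by its brighter probe set (limma adjusted p = 0.0503). On the list for RNA binding, 12 of 34 tested genes, members included, passed as higher and 7 as lower, and on the actin list 3 of 40 passed as higher and 15 as lower.

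**Figure D4:**
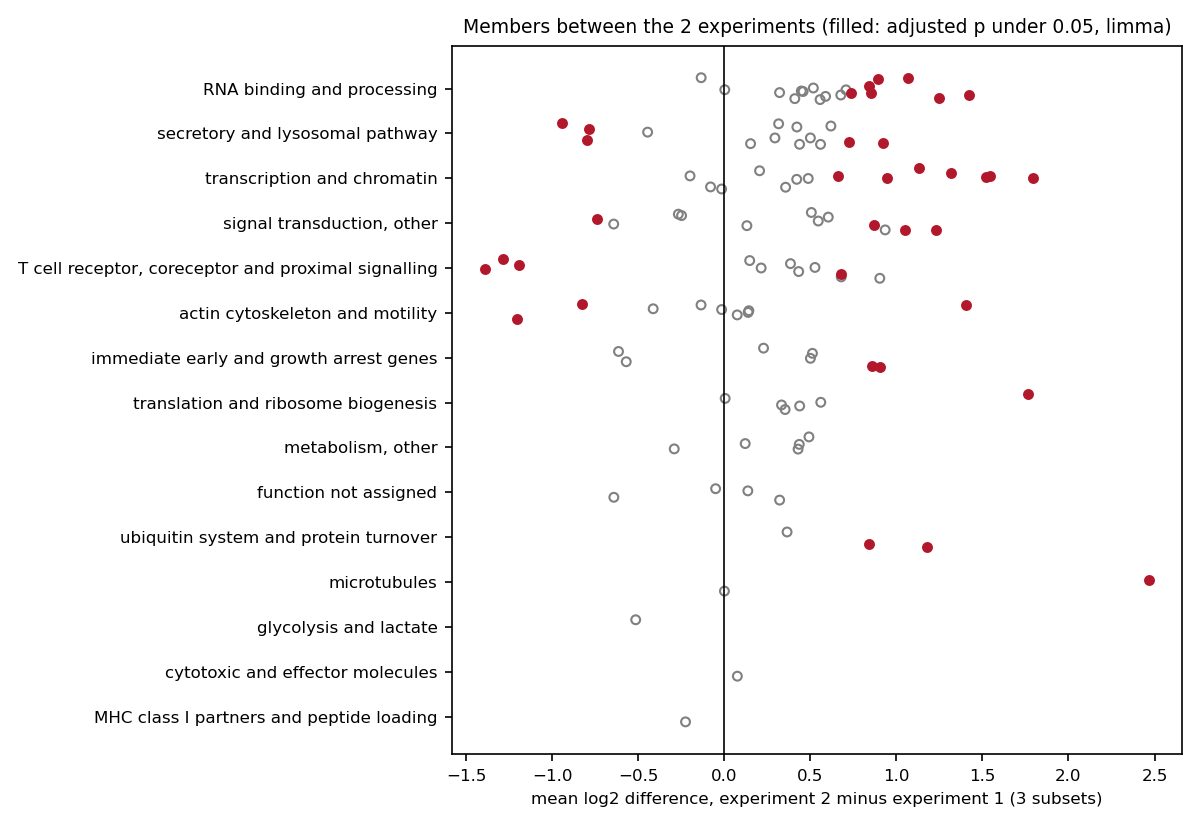
Mean log2 difference of each member between the experiments (experiment 2 minus experiment 1, mean of 3 subsets), by function. Filled points passed limma's test at an adjusted p under 0.05. Of the 27 filled points to the right, 14 belong to RNA binding or to transcription and chromatin, groups of 18 and 14 of the 108 members. Sh2d2a, Ly6e, Tmsb4x and Cd8a lie furthest to the left.

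Other probe sets of the member genes are those that missed the threshold on at least 1 array. The choice therefore sets an upper limit on their signal, and their levels and directions are given as a description. For 32 member genes, 49 other probe sets were on the array, with a median signal of 242 against 116 for all probe sets with 1 symbol. Of the 49, 43 reached 5000 on no array and 19 had a median signal under 100. Among those 19 were all other probe sets of Fos (26) and Chmp4b (21 and 7), so the high level of such genes rests on the member probe set. Of the members, 13.9% had names ending in f, which mark probe sets that match a gene family, against 7.9% of all probe sets with 1 symbol, so part of their signal can come from related transcripts. Of the 49, 13 (26.5%), for 12 genes, had a median signal of 1000 or more, against 15.7% of all probe sets with 1 symbol. Of these 13, 6 moved between the experiments in the same direction as the gene's brightest member and 7 in the opposite one, always with the member higher and the other lower in experiment 2.

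The pairs of opposite sign included the T cell genes Zap70 and Ptprc. For Zap70 the member probe set changed by log2 0.21, and the other fell by 1.88, from 8052, 5160 and 8347 in experiment 1 to 2157, 1692 and 1921 in experiment 2. For Ptprc the values were 0.53 and −0.90, and for Tuba1a 2.47 and −0.82. Gnai2 had 2 others, at −3.00 and −1.53 against 0.93 for the member. Krtcap2 (0.42 and −1.75) and Sec61a1 (0.29 and −2.27) behaved alike. Srsf2 (1.42 and 1.38), Dnajc8 (1.25 and 0.66), Gas5 (0.68 and 1.84), Hnrnpa2b1 (1.07 and 0.27) and Hnrnpdl (0.46 and 1.64) were higher in experiment 2 by both probe sets. Errfi1 was lower by both (−0.25 and −2.04). The direction between experiments thus depended on the probe set for 6 of these 12 genes and was shared for the other 6, of which 5 are RNA-binding genes. The place of the probes along the transcripts was not used here, and its part was not tested.

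**Figure D5:**
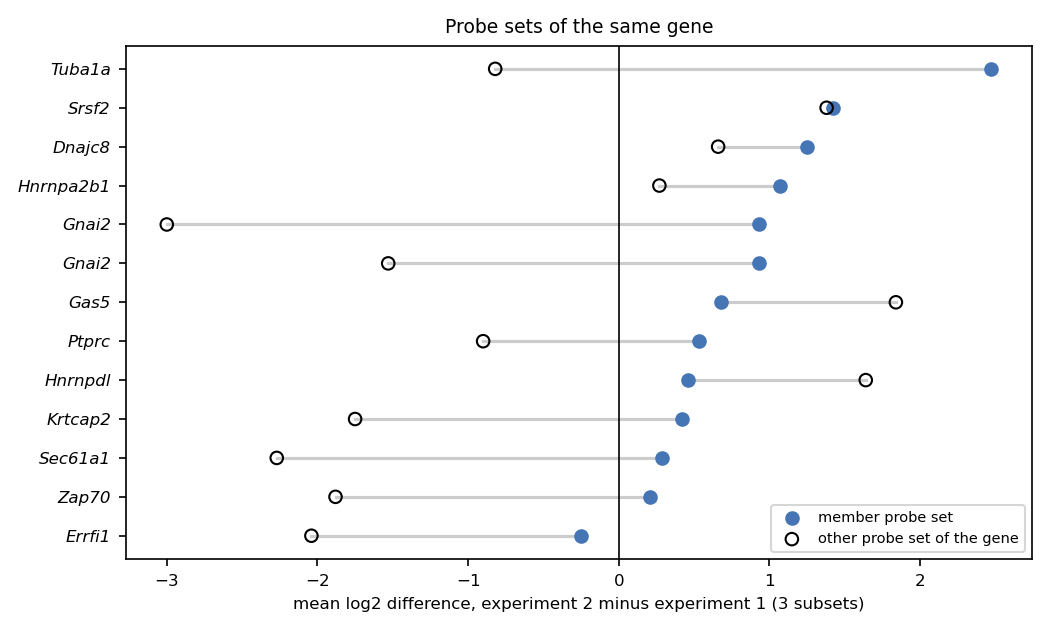
Mean log2 difference between experiments (experiment 2 minus experiment 1, mean of 3 subsets) for the brightest member probe set of a gene (filled) and each other probe set of that gene with a median signal of 1000 or more (open). In 7 of 13 pairs the points fall on opposite sides of 0.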

How the data were processed

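Total RNA of 3 sorted lymphocyte subsets was measured on 6 one-colour Affymetrix arrays, 1 array per subset in each of 2 experiments. The deposited values are signal intensities of 12488 probe sets, which the authors made with MAS5, per the submitters' processing notes, whose version, background settings and scaling target are not given in the sources used here. The arrays' trimmed means (2% off each end) lay between 500.38 and 500.45, so scaling to a common mean changed little. Probe sets were named through GEO's platform annotation. Members were chosen on the deposited signal, and all differences used log2 of the signal floored at 15.3, the 20th percentile. A probe set was tested when at least 2 arrays exceeded 56.4, the 40th percentile, which left 8299, with all 108 members among them. Limma 3.58.1 (R 4.3.3) was fitted over all of these with an intensity trend and Benjamini-Hochberg adjustment. The fit between subsets had no term for the experiment, and a second fit had the experiment as a replicate block.

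Arrays of the same number came from the same pool of mice, per the labels, and their deviations from the subset means correlated with r of 0.618, 0.713 and 0.603 in the 3 pairs of subsets. The 2 arrays per subset limit the precision. Without the block, p-values between subsets measure the spread between pools, not between mice. With the block, p-values and SE measure how far the differences between subsets varied from 1 experiment to the other. Each experiment is 1 pool, so its 3 arrays are not independent replicates of that experiment. The p-values between experiments measure the spread across the 3 subsets, not across pools. Errors of subset differences are limma's SE from the blocked fit, with n = 2 arrays per subset. The fits were tested on simulated data. The members and the gene lists were chosen with earlier results of these data known, and functions of members on no list were assigned by hand after the members were known. The rule for named genes took the 4 probe sets of each function with the highest mean signal, the 10 highest over all members, the 5 on either side of the threshold, and the 4 widest same-sign differences of each subset comparison. It also took the 5 widest and 5 narrowest ranges over the arrays and the 5 highest and 5 lowest differences between experiments. They are given by array or by range. Zap70, Fyn, Ptprc, Ptger4, Prkacb, Btg1 and Srsf2 fall outside it and were given by array after their values were seen, and the remaining members are named to account for each. Promoter sequences are RefSeq's (GRCm38.p6), matched by Entrez gene identifier. Tables were handled with Python 3.11.15, pandas 2.3.3 and matplotlib 3.10.9. Alternatives were quantile normalization, other floors, filters and thresholds, no intensity trend, and each array left out in turn.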

Additional observations from a re-analysis of the deposited data

How the results depend on the processing

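No member passed between subsets under any setting run. Over all probe sets, the count that passed rose from 0 to 68 (TCRab CD8aa against TCRab CD8ab), 46 (TCRgd CD8aa against TCRab CD8ab) and 2 (TCRgd CD8aa against TCRab CD8aa) with the experiment as a replicate block. The settings added to the block were chosen after seeing the data. With the block these counts were 0, 0 and 0 without the filter on low values and 6, 3 and 1 without the intensity trend, and the last was 1 after quantile normalization. As single arrays were left out, they ran from 30 to 198, from 26 to 192 and from 1 to 112. The members' median difference between TCRgd CD8aa and TCRab CD8ab ran from −0.30 to 0.384 as single arrays were left out of the fit without the block, and from −0.159 to 0.247 with it. After quantile normalization 61 members, against 33, were higher in TCRab CD8aa than in TCRab CD8ab, and 46, against 83, were higher in TCRgd CD8aa than in TCRab CD8aa. Between experiments, 506 probe sets passed without the filter, against 2827. A threshold of 3000 gave 223 member probe sets and one of 8000 gave 50, while after quantile normalization 104 of the 108 remained members. Of 22 named differences, 5 moved by more than their spread after quantile normalization, and none of 10 named differences between experiments changed sign in any setting. Those 10 were chosen as the highest and lowest in these same data, so their signs could hardly turn and nothing is read from it. The causes were not tested. The 2 arrays per subset limit which differences can be detected.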

Other observations

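Of the probe sets as bright as the members, 27 carried several gene symbols and were left out, so that their signal cannot be given to 1 gene. Most stood for a gene and its pseudogenes, many of them ribosomal proteins. The probe set shared by Ptma, prothymosin alpha, and a pseudogene gave 17559, 14425 and 15453 in experiment 1 and 15674, 16205 and 24992 in experiment 2. That of Ppia, the cyclophilin that binds cyclosporin, ranged from 17055 to 30998, and that of the phosphatase Ptp4a1 from 16065 to 30211. The probe set shared by Trgv4 and Trgv2, gamma chain variable segments, gave 17014, 12583 and 27528 in experiment 1 and 8923, 7267 and 20511 in experiment 2. TCRgd CD8aa was its highest subset in each experiment, and both subsets sorted for the alpha-beta receptor also lay above the threshold of 5000. The probe set shared by H2-Q9, H2-Q7 and H2-Q5, class I genes, gave 31394, 30507 and 32205 in experiment 1 and 14539, 14958 and 16861 in experiment 2, so the experiments did not overlap.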
